A study of Mus musculus with 4 samples.

Results

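In all, 10 cytochrome P450 genes of the mouse Cyp2b and Cyp2c subfamilies were followed in liver: Cyp2b9, Cyp2b10, Cyp2b13, Cyp2c29, Cyp2c37, Cyp2c38, Cyp2c39, Cyp2c40, Cyp2c55 and Cyp2c70. These 10 genes had been listed with earlier results of the same arrays known. Each was represented by a probe set chosen by its signal, the brightest in mean log2 signal over the 4 arrays among probe sets that the platform annotation gives to that gene alone. Single-gene probe sets existed for 9 of the 10 genes, 11 probe sets in all, out of 18193 genes with such a probe set; Cyp2c40 was not analysed here. The probe sets that stood for the genes were 1419590_at for Cyp2b9, 1425645_s_at for Cyp2b10, 1449479_at for Cyp2b13, 1417651_at for Cyp2c29, 1419094_at for Cyp2c37, 1452501_at for Cyp2c38, 1421363_at for Cyp2c39, 1419582_at for Cyp2c55 and 1424273_at for Cyp2c70. All 9 passed the filter on dim genes, a mean log2 signal no lower than the median probe set's, equal to a signal of 60.9, which left 11749 genes in the whole table. Because the list was drawn up with the differences between the groups in view, the differences of its members are given as descriptions, with no p-value. Where a member is said to be called or not called in a fit over all genes, that too is a description and no support for a difference.

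The samples were whole liver slices of 4 male mice aged 9 months, raised on chow with no intervention, 1 array per mouse. The mice were F1 hybrids of the AJ and B6 strains: the 2 AB6F1 males had AJ mothers and B6 fathers, and the 2 B6AF1 males had B6 mothers and AJ fathers. Both crosses carry 1 set of autosomes from each strain, the chromosomes of the Cyp2b and Cyp2c genes included, and differ in which parent gave which set, in the X and Y chromosomes and in the mitochondria. The titles call the mice biological replicates. The mouse identifiers in the labels lie close together within a cross and further apart between crosses, so anything that differed between these sets of animals, such as housing, and the cross cannot be told apart.

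Enzymes of these subfamilies sit in the endoplasmic reticulum of hepatocytes, where they take electrons from P450 reductase and oxidise drugs, steroids, fatty acids and bile acids. The nuclear receptors CAR (Nr1i3) and PXR (Nr1i2) switch on several of them after exposure to foreign chemicals, Cyp2b10 most of all. Others follow the rhythm of growth hormone, which differs between the sexes, and Cyp2b9 and Cyp2b13 are known as transcripts of female mouse liver. In RefSeq (mouse assembly GRCm38.p6) chromosome 7 holds 5 Cyp2b protein-coding genes and 3 Cyp2b pseudogenes in 1 cluster, and chromosome 19 holds 15 Cyp2c protein-coding genes and 4 pseudogenes. Neighbours in these clusters are close copies of one another, so a probe set may bind the transcript of a related gene; probe sequences were not used here.

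The sequence upstream of the Cyp2b genes is shown because Cyp2b9 and Cyp2b13, which differed unequally between the crosses, share nearly all of it. RefSeq promoters were found for all 10 genes, 11 entries in all since Cyp2c39 has 2 annotated starts, and the 250 bases before each annotated start were compared. The Cyp2b9 run lies at chr7:26173159-26173408 on the plus strand, the Cyp2b13 run at chr7:26061245-26061494 on the plus strand and the Cyp2b10 run at chr7:25897408-25897657 on the plus strand, all in GRCm38.p6. Each run is printed 5′ to 3′ and ends at the base before the annotated start. In the Cyp2b9 and Cyp2b13 runs the capitals mark the hexamer AGGTCA, a letter pattern to which nuclear receptors bind, and the positions where both runs differ; the Cyp2b10 run held no match and has no capitals.
Cyp2b9: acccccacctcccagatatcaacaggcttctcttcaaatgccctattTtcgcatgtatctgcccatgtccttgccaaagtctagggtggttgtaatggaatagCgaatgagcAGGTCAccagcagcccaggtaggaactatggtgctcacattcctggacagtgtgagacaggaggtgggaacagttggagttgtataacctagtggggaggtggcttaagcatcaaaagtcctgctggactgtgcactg
Cyp2b13: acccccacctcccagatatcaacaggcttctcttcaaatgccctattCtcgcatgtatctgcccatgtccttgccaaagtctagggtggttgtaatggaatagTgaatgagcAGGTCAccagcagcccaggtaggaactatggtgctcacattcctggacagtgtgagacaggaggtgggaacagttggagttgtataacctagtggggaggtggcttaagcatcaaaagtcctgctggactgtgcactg
Cyp2b10: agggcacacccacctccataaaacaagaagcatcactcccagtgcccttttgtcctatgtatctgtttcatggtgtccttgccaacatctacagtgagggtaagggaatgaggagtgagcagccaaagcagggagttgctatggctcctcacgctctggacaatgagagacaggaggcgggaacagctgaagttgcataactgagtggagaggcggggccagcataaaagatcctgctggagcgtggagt

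The Cyp2b9 and Cyp2b13 runs were identical at 248 of 250 bases. Counted from 1 at the 5′ end, with the base of Cyp2b9 first, the differences were T48C and C104T, which lie 203 and 147 bases before the start. The AGGTCA of both genes lay 138 to 133 bases before the start. The Cyp2b10 run aligned with either of them over 238 bases, of which 186 (78.2%) were identical. These are sequences of the reference strain, not of the AJ strain.

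The runs of a pair of Cyp2c genes are shown for contrast, since Cyp2c29 and Cyp2c37 were the members whose AB6F1 arrays both lay below B6AF1. The Cyp2c29 run lies at chr19:39286835-39287084 on the plus strand and the Cyp2c37 run at chr19:39992174-39992423 on the plus strand. Capitals mark the AGGTCA and the TATAAA of Cyp2c29; no searched pattern matched in Cyp2c37.
Cyp2c29: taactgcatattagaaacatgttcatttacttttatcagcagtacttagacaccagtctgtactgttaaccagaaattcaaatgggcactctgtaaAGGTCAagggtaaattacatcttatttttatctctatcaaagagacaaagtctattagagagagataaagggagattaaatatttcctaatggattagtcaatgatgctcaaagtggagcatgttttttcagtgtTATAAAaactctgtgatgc
Cyp2c37: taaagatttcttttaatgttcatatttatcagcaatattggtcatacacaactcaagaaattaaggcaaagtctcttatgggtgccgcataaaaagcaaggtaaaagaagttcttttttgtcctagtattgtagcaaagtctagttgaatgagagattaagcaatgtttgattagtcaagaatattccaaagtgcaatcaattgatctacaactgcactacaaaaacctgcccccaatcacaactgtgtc

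These Cyp2c runs aligned over 217 bases with 163 identical (75.1%). The closest pair of different Cyp2c members was Cyp2c38 and the second start of Cyp2c39, with 198 of 221 aligned bases identical (89.6%). Patterns were searched on both strands in all 11 member runs, and each percentage in brackets is that of the 32851 mouse promoters in the table that hold the pattern in the same window. The TATA box pattern TATAAA was in 4 runs, Cyp2c29, Cyp2c38, Cyp2c55 and Cyp2c70 (12.4%). The hexamer AGGTCA was in 5, those of Cyp2b9, Cyp2b13, Cyp2c29, Cyp2c70 and the first start of Cyp2c39 (14%). The HNF4 pattern CAAAGTCCA was in 2, Cyp2c40 and Cyp2c70 (0.384%), the FOXA pattern TGTTTAC in 3, Cyp2c38 and both starts of Cyp2c39 (3.17%), and the HNF1 pattern GTTAAT in 1, Cyp2c40 (6.43%). The STAT pattern TTCNNNGAA was in none of the 11 (7.02%). No patterns overlapped in these runs, and the matches are letters in a window, not tested sites.

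Cyp2b13 stood far above in AB6F1 males, Cyp2b9 was 2.15-fold higher there, and Cyp2b10 was high in 1 AB6F1 mouse only. Among the Cyp2c genes, Cyp2c37 and Cyp2c29 were somewhat lower in both AB6F1 mice and Cyp2c39 somewhat higher, while Cyp2c38, Cyp2c55 and Cyp2c70 overlapped between the crosses. Differences are given as AB6F1 minus B6AF1 on the scale of log2 signal, with the SE of limma's fit over all 11749 genes. Cyp2b13 was the single member past an adjusted p of 0.05 in that fit, against 25 of all genes (0.213%), and 16 of all genes were past it and higher in AB6F1 (0.136%). Since the members were chosen with this contrast known, nothing is read from that count. With 2 mice against 2, an exact two-sided permutation test of a single gene cannot go below p = 0.333. The limma p-values below set a difference against a variance with 2 residual degrees of freedom from these mice. A further 4.97 come from the prior, that is, from other genes of like signal.

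**Figure D1:**
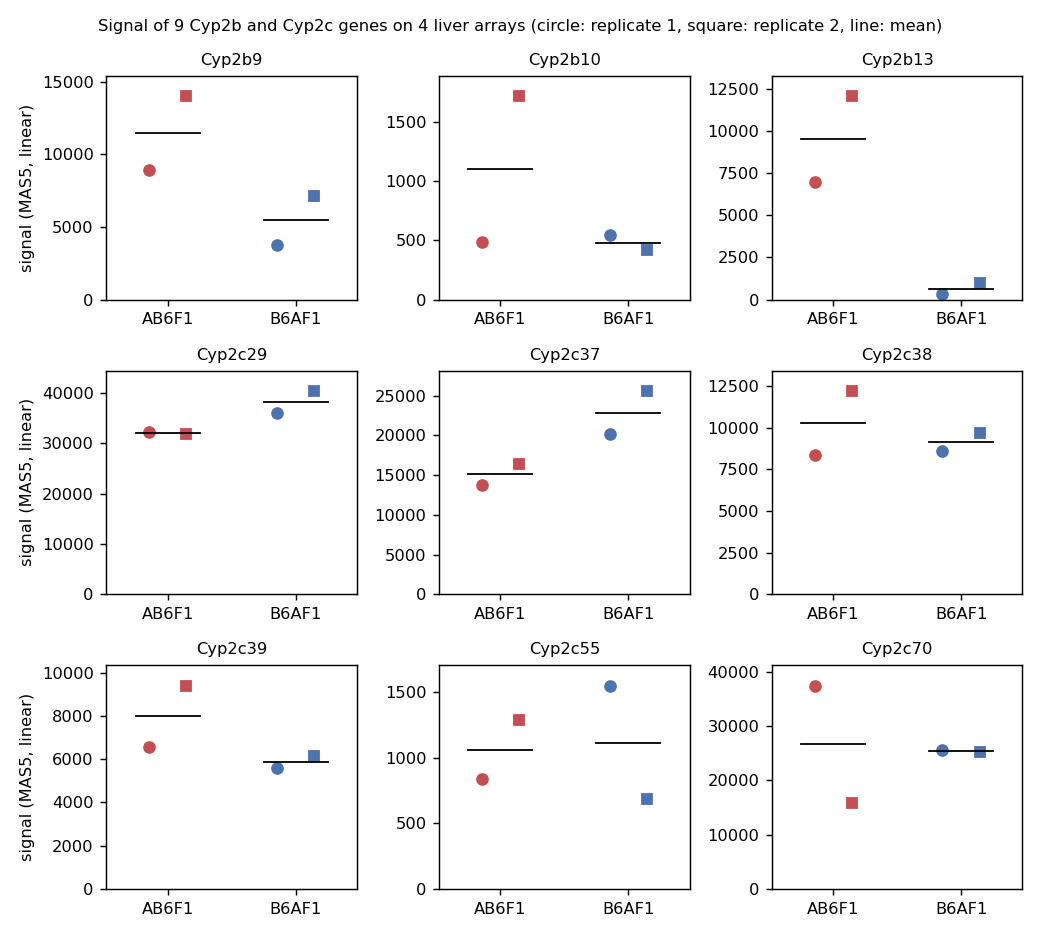
Linear MAS5 signal (y axis, from 0) of the 9 measured genes on the AB6F1 arrays (red) and B6AF1 arrays (blue), with replicate 1 as a circle, replicate 2 as a square and the mean of each cross as a line. Cyp2b13 separates the crosses widely, while for Cyp2b10 and Cyp2c70 the AB6F1 mice lie far apart from each other, at 491.4 and 1721.3 and at 37475.9 and 15899.2.

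Cyp2b13, a P450 of female liver, had signals of 6942.3 and 12060.1 in AB6F1 replicates 1 and 2 and of 325.3 and 963.8 in B6AF1 replicates 1 and 2. Both AB6F1 mice lay above both B6AF1 mice, and the lower AB6F1 signal was several times the higher B6AF1 signal. The means were 9501 ± 3619 (SD, n = 2) and 645 ± 451 (SD, n = 2), a log2 difference of 4.03 ± 0.49 (SE), or 16.3-fold. The mice of a cross also differed, by 1.74-fold in AB6F1 and 2.96-fold in B6AF1. Cyp2b13 was no longer called without B6AF1 replicate 1, where the log2 difference was 3.25, or without B6AF1 replicate 2, where it was 4.81. It was also not called with the filter at the 75th percentile, without the intensity trend or with robust variance moderation, at an unchanged difference of 4.03.

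Cyp2b9, its neighbour on chromosome 7 and a testosterone hydroxylase that is also more abundant in females, had signals of 8894.5 and 14003.5 in AB6F1 and of 3756.2 and 7159.5 in B6AF1. Again both AB6F1 mice were above both B6AF1 mice, but the gap between the nearest mice was narrow beside that of Cyp2b13. The means were 11449 ± 3613 (SD, n = 2) and 5458 ± 2407 (SD, n = 2), a log2 difference of 1.11 ± 0.32 (SE), or 2.15-fold, and Cyp2b9 was not called.

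The ratio of Cyp2b13 to Cyp2b9 within each array describes how unequally these neighbours differed. In the AB6F1 mice the log2 ratio was -0.36 and -0.22, and in the B6AF1 mice -3.53 and -2.89, so that it differed by 2.92 between the crosses, with SD of 0.10 and 0.45. The level of 1 probe set against another has no meaning of its own, since probe sets differ in brightness, but the scaling of an array drops out of the difference. In B6AF1 replicate 2 both genes were higher than in replicate 1, and in AB6F1 both were higher in replicate 2. The log2 ratio of Cyp2b10 to Cyp2b9 overlapped between the crosses, at -4.18 and -3.02 in AB6F1 against -2.78 and -4.09 in B6AF1, and differed by -0.16 with SD of 0.82 and 0.92.

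Cyp2b10, the classical CAR target and the main phenobarbital-inducible P450 of mouse liver, was measured by 3 probe sets, of which 2 have the suffix _s_at and may bind related transcripts. On the brightest, an _s_at probe set, AB6F1 replicates 1 and 2 gave 491.4 and 1721.3, and B6AF1 replicates 1 and 2 gave 545.0 and 420.0. AB6F1 replicate 2 stood alone, and AB6F1 replicate 1 lay between the B6AF1 mice. The means were 1106 ± 870 (SD, n = 2) and 483 ± 88.4 (SD, n = 2), a log2 difference of 0.94 ± 0.52 (SE).

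The same mouse was high on each of the other Cyp2b10 probe sets. The second _s_at probe set, 1422257_s_at, gave 262.0 and 1381.3 in AB6F1 and 362.1 and 473.8 in B6AF1, for a log2 difference of 0.54 ± 0.63 (SE). The probe set of plain _at suffix, 1451787_at, gave 143.1 and 995.1 in AB6F1 and 328.5 and 224.8 in B6AF1, for a log2 difference of 0.47 ± 0.74 (SE). AB6F1 replicate 1 was the lowest of the 4 mice on both. The second AB6F1 mouse was thus 3.50-fold, 5.27-fold and 6.95-fold above the first, where 1.89% of all tested genes differed by more than 3-fold between these mice and the median gene differed by 1.18-fold. Without AB6F1 replicate 2 the log2 difference of Cyp2b10 was 0.04, and without AB6F1 replicate 1 it was 1.85. Cyp2b10 was called in the latter fit, where AB6F1 is 1 mouse that is assumed to vary like the B6AF1 mice, although on the log2 scale the AB6F1 mice had an SD of 1.28 and the B6AF1 mice one of 0.27.

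**Figure D2:**
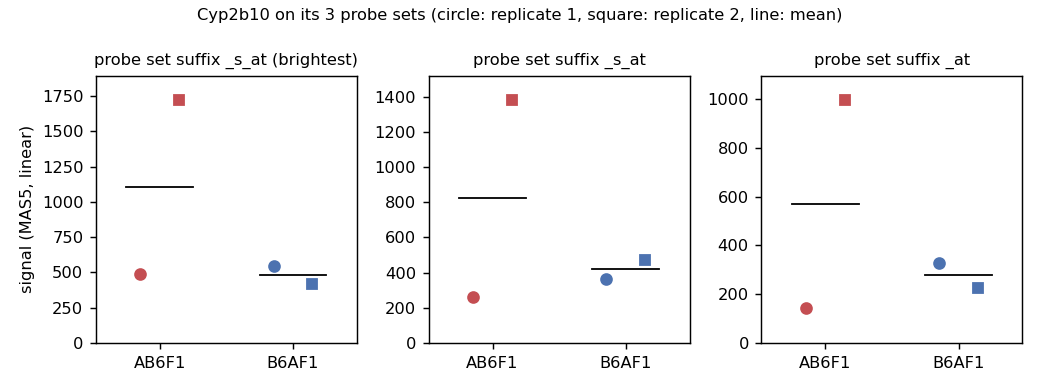
Linear MAS5 signal (y axis, from 0) of Cyp2b10 on its 3 probe sets, for AB6F1 (red) and B6AF1 (blue), with replicate 1 as a circle, replicate 2 as a square and the mean as a line. AB6F1 replicate 2 is the highest of the 4 mice on each probe set, at 1721.3, 1381.3 and 995.1.

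Cyp2c37, an arachidonic acid hydroxylase that CAR activators can also induce, ran the opposite way. The AB6F1 mice had signals of 13785.6 and 16379.4 and the B6AF1 mice of 20118.4 and 25592.2, so that the crosses did not overlap. The means were 15083 ± 1834 (SD, n = 2) and 22855 ± 3871 (SD, n = 2), a log2 difference of -0.59 ± 0.16 (SE).

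Cyp2c29, an abundant P450 that makes epoxides of arachidonic acid and responds to CAR, had signals of 32242.8 and 31796.5 in AB6F1 and of 35942.9 and 40380.2 in B6AF1. The crosses did not overlap, by a small margin: the means were 32020 ± 316 (SD, n = 2) and 38162 ± 3138 (SD, n = 2), a log2 difference of -0.25 ± 0.12 (SE). The highest signal of any probe set was 57981.5 to 67938.7 over the 4 arrays.

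Cyp2c38 and Cyp2c39 stand close together on chromosome 19, and both enzymes also act on arachidonic acid or retinoids. Cyp2c39, a retinoic acid hydroxylase, had signals of 6569.2 and 9406.8 in AB6F1 and of 5608.1 and 6138.1 in B6AF1, for a log2 difference of 0.42 ± 0.18 (SE). Both AB6F1 mice were above both B6AF1 mice. Cyp2c38 had signals of 8360.6 and 12223.8 in AB6F1 and of 8607.3 and 9718.1 in B6AF1, for a log2 difference of 0.14 ± 0.19 (SE). Its crosses overlapped, since AB6F1 replicate 1 was the lowest mouse and AB6F1 replicate 2 the highest, and without AB6F1 replicate 2 the difference turned to -0.13.

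The log2 ratio of Cyp2c39 to Cyp2c38 was steady within each cross, at -0.35 and -0.38 in AB6F1 and -0.62 and -0.66 in B6AF1. It differed by 0.28 between the crosses, with SD of 0.02 and 0.03. For Cyp2c37 over Cyp2c29 the AB6F1 ratios were -1.23 and -0.96 and the B6AF1 ratios -0.84 and -0.66, a difference of -0.34 with SD of 0.19 and 0.13. In both of these pairs the crosses did not overlap.

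Cyp2c55, which is known from intestine and from liver treated with CAR or PXR activators, had signals of 836.5 and 1286.0 in AB6F1 and of 1550.1 and 681.4 in B6AF1, for a log2 difference of 0.01 ± 0.38 (SE). The B6AF1 mice were the highest and the lowest of the 4. Its sign was negative after quantile normalization (-0.01), median centring (-0.12) and cyclic loess (-0.00149), and it has no settled direction. The interval of the SE leaves room for a difference of either sign.

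Cyp2c70, the enzyme that makes muricholic acids, the bile acids particular to rodents, had signals of 37475.9 and 15899.2 in AB6F1 and of 25611.1 and 25160.5 in B6AF1. The AB6F1 mice lay on either side of the B6AF1 mice, which were nearly alike. The means were 26688 ± 15257 (SD, n = 2) and 25386 ± 319 (SD, n = 2), a log2 difference of -0.06 ± 0.35 (SE). The sign turned under quantile normalization (0.02) and cyclic loess (0.05). Cyp2c70 was 2.36-fold higher in AB6F1 replicate 1 than in replicate 2, the reverse of the Cyp2b genes, and leaving out AB6F1 replicate 2 gave a difference of 0.56, leaving out AB6F1 replicate 1 one of -0.68.

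**Figure D3:**
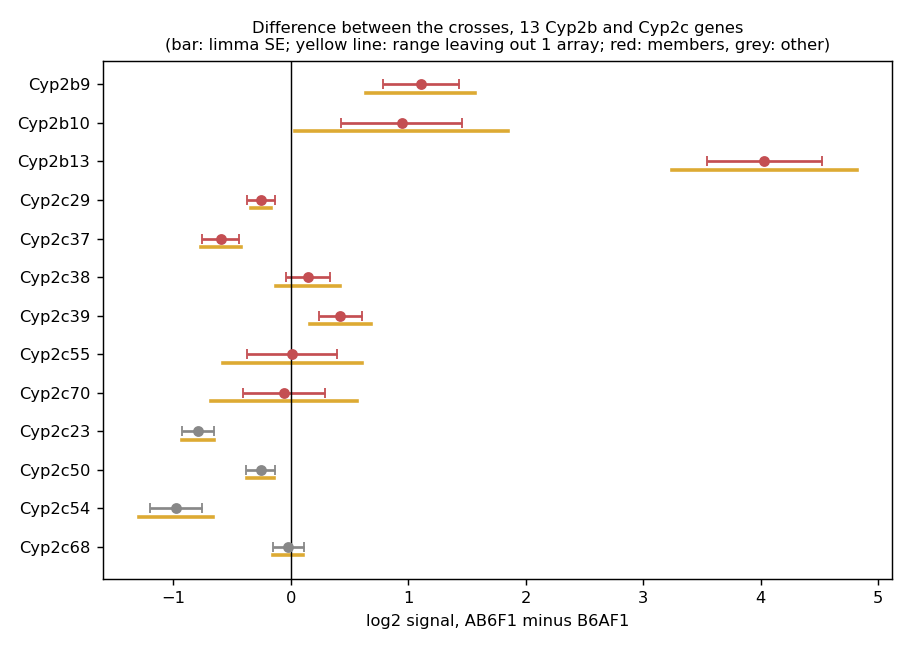
Log2 difference between the crosses (x axis, AB6F1 minus B6AF1) for the 9 members (red) and 4 other Cyp2c genes (grey); bars are limma's SE and yellow lines the range when 1 array is left out. Cyp2b13 lies near 4, while every Cyp2c gene lies within about 1 log2 unit of 0.

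Across the 9 members, 6 differences were positive and 3 negative, with a median of 0.14 beside 0.02 over all genes tested. For 5 members the signals of the crosses were fully separate, against 41.2% of all genes: AB6F1 lay above for Cyp2b9, Cyp2b13 and Cyp2c39 (22.5% of all genes) and below for Cyp2c29 and Cyp2c37 (18.7%). AB6F1 replicate 2 was the highest array for 5 of the 9 members, Cyp2b9, Cyp2b10, Cyp2b13, Cyp2c38 and Cyp2c39, and for 23.4% of all genes. B6AF1 replicate 2 was the highest for Cyp2c29 and Cyp2c37. With each array centred on its median, 5 members were positive, Cyp2c55 being the one that turned, while the median over all genes went from 0.02 to -0.11.

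The rest of both subfamilies was followed through 10 further genes, of which 6 had a single-gene probe set and 4 passed the filter. All 4, each a Cyp2c gene, were negative (median -0.52), and none was called; 2 of the 4 had an unadjusted p under 0.05, as did 1142 of all 11749 genes (9.72%). Cyp2c54 had signals of 14232.2 and 9192.7 in AB6F1 and of 19865.1 and 25583.3 in B6AF1, for a log2 difference of -0.98 with SE 0.22 (limma adjusted p = 0.248). Cyp2c23, formerly Cyp2c44, an arachidonic acid epoxygenase measured by an _s_at probe set, had signals of 7256.4 and 8763.9 in AB6F1 and of 12979.4 and 14681.8 in B6AF1, for a log2 difference of -0.79 with SE 0.14 (limma adjusted p = 0.14). For Cyp2c54 and Cyp2c23, as for Cyp2c50 at -0.26 ± 0.13 (SE; limma adjusted p = 0.566), both AB6F1 mice were below both B6AF1 mice.

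Cyp2c68 overlapped between the crosses at -0.02 ± 0.13 (SE; limma adjusted p = 0.97), and its sign turned after quantile normalization and cyclic loess. Cyp2c23 was called without AB6F1 replicate 2 (-0.93) and Cyp2c54 without AB6F1 replicate 1 (-1.29), in fits where only the B6AF1 mice give the spread and where 242 and 79 of all genes were called. The dim genes Cyp2b19 and Cyp2c65 did not pass the filter: the signals of Cyp2b19, an epidermal P450, were 10.7, 7.1, 8.0 and 52.5, and those of Cyp2c65 were 46.8, 89.4, 45.2 and 39.9, in the order AB6F1 replicates 1 and 2, then B6AF1 replicates 1 and 2. Cyp2b23, Cyp2c66, Cyp2c67 and Cyp2c69 were not analysed here.

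By position, the 3 Cyp2b genes on chromosome 7 that passed the filter had positive differences of 0.94, 4.03 and 1.11 in the order Cyp2b10, Cyp2b13, Cyp2b9, although that of Cyp2b10 rested on 1 mouse. Cyp2b13 and Cyp2b9 have 1 pseudogene between them. On chromosome 19 the neighbours Cyp2c37, Cyp2c54 and Cyp2c50 were at -0.59, -0.98 and -0.26. Genes were ordered by their lowest annotated start, which for Cyp2c39 is its first start. In that order Cyp2c39 and Cyp2c38, with 1 pseudogene between them, were at 0.42 and 0.14, the last with crosses that overlapped. Cyp2c29, directly beside Cyp2c39 in that order, was at -0.25, the opposite sign. The second start of Cyp2c39, after chr19:39510821, lies beyond the start of Cyp2c38, before chr19:39463076. By that second start, Cyp2c38 lies between Cyp2c29 and Cyp2c39. Cyp2c68 and Cyp2c70 were at -0.02 and -0.06. Copies that lie side by side also share sequence, so position and possible cross-binding of probe sets cannot be told apart here.

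**Figure D4:**
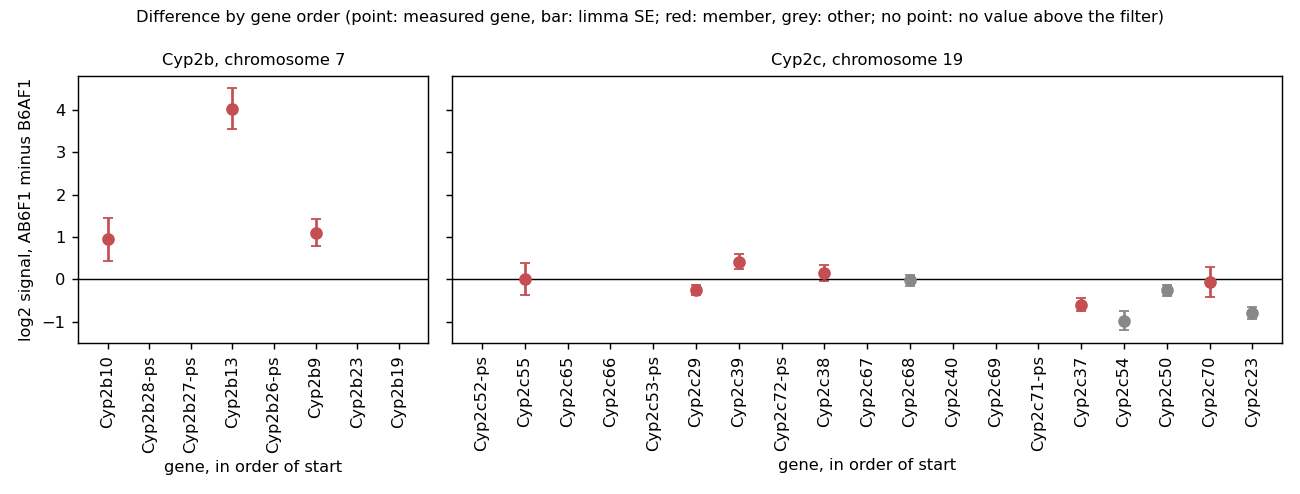
Log2 difference between the crosses (y axis, AB6F1 minus B6AF1, with limma's SE) for Cyp2b genes on chromosome 7 and Cyp2c genes on chromosome 19. Genes are in the order of their lowest annotated start, for Cyp2c39 its first start. Members are red, other genes grey, and names without a point have no value above the filter. The 3 points for Cyp2b genes past the filter are above 0 and those of Cyp2c37, Cyp2c54, Cyp2c50 and Cyp2c23 below it.

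Genes around these enzymes were taken from lists by function, and their counts are set beside the 0.213% of all genes called and the 9.72% at an unadjusted p under 0.05. Like the members, the lists were chosen with earlier results of these data known, so their counts and p-values are descriptions. Of 16 tested nuclear receptors and factors known to act on Cyp2b and Cyp2c genes, 8 were positive and 8 negative, and none was called (2 at an unadjusted p under 0.05, near the share of all genes; median 0.01). With median centring 4 of the 16 were positive. Nr1i3, which encodes CAR, had signals of 1339.2 and 1403.8 in AB6F1 and of 1644.8 and 2015.0 in B6AF1, which put the log2 difference at -0.41 with SE 0.15 (limma adjusted p = 0.452). Both AB6F1 mice were below both B6AF1 mice. How the Nr1i3 transcript relates to Cyp2b10 was not tested. Nr0b2 (SHP), a repressor that bile acids induce, was at -1.17 ± 0.38 (SE; limma adjusted p = 0.408) and Cebpb at 0.36 ± 0.18 (SE; limma adjusted p = 0.56), while Nr1i2, which encodes PXR, was at 0.07 ± 0.19 (SE; limma adjusted p = 0.923).

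Of 12 tested genes for electron supply to P450s and for haem, their cofactor, 4 were positive and 8 negative and none was called (1 at an unadjusted p under 0.05, against 9.72% of all genes; median -0.04). The split was 6 to 6 after quantile normalization and 8 positive to 4 negative after cyclic loess. Hmox1, which breaks haem down, was at 1.03 ± 0.30 (SE; limma adjusted p = 0.37). Cpox and Fech, late enzymes of haem synthesis, were each at -0.25, with SE of 0.12 and 0.13 and limma adjusted p of 0.557 and 0.598. P450 reductase itself (Por) was not analysed here.

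Of 19 tested other genes known to respond to CAR or PXR, 6 were positive and 13 negative, with a median of -0.10. In limma's fit 4 of the 19 were at an unadjusted p under 0.05, against 9.72% of all genes. After cyclic loess 10 of the 19 were positive. Cyp1a2, a P450 of aromatic amines, fell, with signals of 10673.5 and 10526.6 in AB6F1 against 20484.1 and 22375.2 in B6AF1 (log2 difference -1.01 ± 0.11, SE; limma adjusted p = 0.0262), and was the 1 gene of the list called. Abcc4, an efflux transporter, had signals of 306.8 and 638.7 in AB6F1 against 66.4 and 72 in B6AF1, for a log2 difference of 2.68 with SE 0.39 (limma adjusted p = 0.072). The carboxylesterase Ces2a was at -0.84 ± 0.14 (SE; limma adjusted p = 0.116). AB6F1 replicate 2 was the highest array for 7 of these 19 genes, and for 23.4% of all genes.

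Of 14 tested genes of growth hormone signalling and sex-dependent regulation, 8 were positive and 6 negative and none was called (5 at an unadjusted p under 0.05, against 9.72% of all genes; median 0.05). With median centring 8 of the 14 were negative. Trim24, a cofactor of nuclear receptors, was at 0.60 ± 0.19 (SE; limma adjusted p = 0.384), with AB6F1 replicate 2 the highest mouse. Nox4, a NADPH oxidase, was at -0.97 ± 0.16 and Rarb, a retinoic acid receptor, at 0.85 ± 0.22 (SE; limma adjusted p = 0.121 and 0.312). Ghr and Igf1 were at -0.29 ± 0.11 and -0.32 ± 0.11 (SE, limma adjusted p = 0.463 and 0.437), with both AB6F1 mice below both B6AF1 mice. Cux2, a female-biased repressor, was at 0.21 ± 0.23 and Stat5b, which relays growth hormone, at -0.16 ± 0.15, both with limma adjusted p above 0.75. Cish had the largest difference of the list, 1.19 ± 0.66 (SE, limma adjusted p = 0.615), with crosses that overlapped. The crosses also overlapped for Bcl6 at -0.46 ± 0.72, Socs2 at 0.02 ± 0.46, Jak2 at 0.09 ± 0.21 and Stat5a at -0.13 ± 0.19 (SE). Esr1 and Zbtb20 were at 0.30 ± 0.16 and 0.18 ± 0.12 (SE), with both AB6F1 mice above both B6AF1 mice.

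Of 21 tested P450s of families 2 to 4 outside both subfamilies, 17 were negative and 4 positive, with a median of -0.28, and 1 was called. In limma's fit 8 of the 21 were at an unadjusted p under 0.05, against 9.72% of all genes. The negative ones were 20 with median centring and 14 after cyclic loess. Both AB6F1 mice lay below both B6AF1 mice for 11 of the 21 (18.7% of all genes) and above for 1. Cyp3a11 and Cyp3a13 count both here and among the genes known to respond to CAR or PXR. Cyp4f14, a fatty acid and leukotriene hydroxylase, fell, from 7220.2 and 8151.8 in B6AF1 to 3658.8 and 3019.5 in AB6F1 (log2 difference -1.21 ± 0.14, SE; limma adjusted p = 0.0318), as the called gene of the list. Cyp2u1, a fatty acid hydroxylase, was at -1.68 ± 0.23 and the male-biased Cyp2d9 at -0.93 ± 0.13 (SE; limma adjusted p = 0.062 for each). B6AF1 replicate 2 was the highest array for 16 of these 21 P450s (25% of all genes), and AB6F1 replicate 2 for none (23.4% of all genes). The same held for hepatocyte and pericentral markers: B6AF1 replicate 2 was the highest for 9 of 12 and 8 of 11, and AB6F1 replicate 2 for none. Among the members, AB6F1 replicate 2 was the highest for 5 of 9. That difference between the lists was not tested. Cyp1a2 and Cyp4f14 were not called without B6AF1 replicate 1, without B6AF1 replicate 2 or without the intensity trend.

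**Figure D5:**
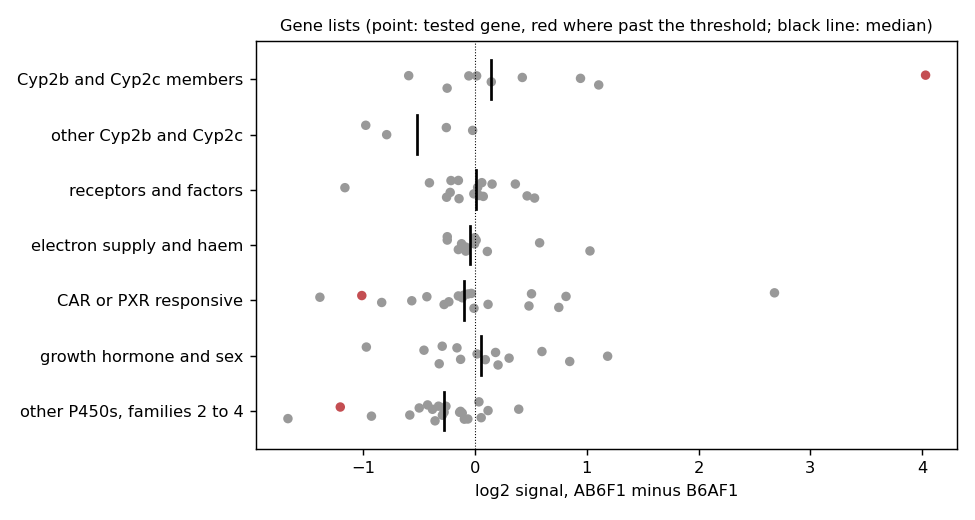
Log2 difference between the crosses (x axis, AB6F1 minus B6AF1) of each tested gene, by list; red points are past a limma adjusted p of 0.05 and black lines are medians. Cyp2b13, Cyp1a2 and Cyp4f14 are the red points, and the median of the other P450s is -0.28.

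Markers of the cells in a liver slice were measured beside these results. All 4 arrays had a trimmed mean signal of 500, and correlations of log2 signal between arrays ran from 0.961 to 0.975. Hepatocyte markers were negative for 12 of 12 tested, with a small median of -0.11 that was 0.02 after cyclic loess; their summed signal was 403418 to 435828 in AB6F1 and 429711 to 489263 in B6AF1. Pericentral markers, which mark the zone where many Cyp2c transcripts are found, were negative for 9 of 11 (median -0.27). Their summed signal was 95895 to 98394 in AB6F1 against 117525 to 130793 in B6AF1. The 2 positive ones were Glul and Rhbg, at 0.45 and 0.89. Periportal markers were negative for 6 of 8 (median -0.18, summed signal 103324 to 119571 against 125031 to 130553). The P450s among these markers, Cyp1a2, Cyp2e1 and Cyp2f2, also count in the lists above. Macrophage markers were positive for 10 of 10 (median 0.72, summed signal 10868 to 17338 against 7201 to 10059), with Marco and Timd4 below the filter. Stellate cell markers were positive for 10 of 11 (median 0.73, summed signal 14776 to 17943 against 10652 to 11394). In limma's fit 2 of the stellate cell markers were called higher, as were 16 of all 11749 genes (0.136%). Over all genes tested, 6284 differences were positive and 5465 negative. The part of these cell types in the differences of the Cyp2b and Cyp2c genes was not tested. In whole tissue fewer cells of a type and less RNA per cell cannot be told apart.

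Endothelial markers (8 tested, median 0.20), cholangiocyte markers (4 tested, 0.30) and lymphocyte markers (4 tested, -0.15) were summed to 4043 to 4565, 417 to 496 and 233 to 427 in AB6F1, and to 3500 to 4716, 388 to 472 and 347 to 351 in B6AF1. Of 8 intestinal markers, relevant because Cyp2c55 and Cyp2c65 are abundant in gut, Vil1, Cdx1 and Cdx2 were below the filter, and the 4 tested ones (median -0.07) summed to 10848 to 27020 in AB6F1 and to 13057 to 14837 in B6AF1. Nearly all of that sum came from Fabp2 and Apoa4, which liver also makes. Both were highest in AB6F1 replicate 2, the mouse with high Cyp2b10, at 16496.3 for Fabp2 and 10308 for Apoa4, against at most 8867.6 and 5771.6 in the other mice. Lgals4 and Alpi, the other markers tested, had negative log2 differences of -0.30 ± 0.38 and -0.52 ± 0.51 (SE). AB6F1 replicate 2 was thus the highest array for 2 of the 4 tested markers and B6AF1 replicate 2 for 2.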

How the data were processed

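RNA from whole liver slices was extracted with Trizol and hybridised as biotinylated cRNA to Affymetrix arrays, per the labels' protocols. The deposited values are 1 linear intensity per probe set and array, a MAS5 signal per the submitters' processing notes; no version or genome build is given in the sources used here. From the values, each array was scaled to a trimmed mean of 500 (2% of probe sets dropped at each end), which hides a change shared by all transcripts. The table held 45101 probe sets, 64 of them controls. The platform annotation gave 1 symbol for 34945, several for 932 and none for 9160. Of the single symbols, 34741 were matched to RefSeq (GRCm38.p6) through their gene identifiers, and the RefSeq symbol was used. Each gene stood by its brightest probe set, and genes under the median signal of 60.9 were left out.

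No pseudocount was added before log2 was taken. The crosses were compared with limma 3.58.1 (lmFit and trended eBayes, under R 4.3.3; two-sided, Benjamini-Hochberg over 11749 genes, threshold 0.05). The number of arrays limits the precision: 2 residual degrees of freedom and 4.97 from the prior. The fit and the motif search were tested on simulated data. Promoters were aligned with Biopython 1.88. The members and lists were chosen with earlier results of these data known. The rule named every probe set of the members and the other Cyp2b and Cyp2c genes. From each list it named the genes called or at most 3 of smallest p. Nr1i2, Ghr, Igf1, Cux2, Stat5b, Cish, Bcl6, Socs2, Jak2, Stat5a, Esr1 and Zbtb20 were added after their values were seen. So were the markers Glul, Rhbg, Fabp2, Apoa4, Lgals4 and Alpi. Alternatives were other scalings, 16 added to the signal, other filters and probe sets, other variance moderation, the replicate block, each array left out, and a threshold of 0.1.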

Additional observations from a re-analysis of the deposited data

How the results depend on the processing

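Over all genes, 25 were called. The count was 49 with median centring (28 higher, 21 lower), 0 without the intensity trend (limma, 1044 at an unadjusted p under 0.05), 62 with the replicate block and 46 at a threshold of 0.1; leaving out 1 array gave 1 (either B6AF1 mouse) to 242 (AB6F1 replicate 2), in fits where the cross with 1 mouse is assumed to vary like the other. Of the members 1 was called, Cyp2b13; the count was 0 with the filter at the 75th percentile, without the trend and with robust eBayes, 2 with the replicate block (Cyp2b9 joined), and 0 to 2 leaving out 1 array. Of the listed genes 2 were called; the count was 5 with median centring, 0 without the trend, 4 with robust eBayes, 6 with the replicate block, 5 at a threshold of 0.1, and 0 to 12 leaving out 1 array.

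Signs turned only near 0 or with 1 array. Cyp2c55 was at -0.0108 after quantile normalization, -0.123 with median centring and -0.00149 with cyclic loess, and ran from -0.58 to 0.61 leaving out 1 array. Cyp2c70 was at 0.0247 and 0.0476 after quantile normalization and cyclic loess, and ran from -0.68 to 0.56. Cyp2c68 was at 0.0471 and 0.0674 in the same settings, and ran from -0.15 to 0.11; Cyp2c38 ran from -0.13 to 0.42. Cyp2b9, Cyp2b10, Cyp2b13, Cyp2c29, Cyp2c37, Cyp2c39, Cyp2c23, Cyp2c50 and Cyp2c54 kept their direction under each alternative run, Cyp2b13 between 3.25 and 4.81. The causes were not tested. The replicate numbers share nothing but the number per the labels, and deviations of same-numbered mice correlated at -0.03. Without detection calls, signals near the filter have no lower bound.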
